A study of Danio rerio with 18 samples.

Results

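The comparison described here sets the digestive organs of zebrafish larvae 4 h after a high-fat meal against those of larvae 1 h after the same meal. It takes in 6 of the 18 samples of the series, 3 pools at each time, and is described across 12828 genes. The larvae were 6.5 days post fertilization and of the wild-type AB strain, they carried no transgene, and each pool held intestine, liver and pancreas dissected from 10 larvae. At 4 h and at 1 h the larvae had been given a 5% egg yolk emulsion, and the larvae of both times belonged to the high-fat cohort, which had its own unfed group of 3 pools. A second cohort, used below for comparison, was fed 10% egg white as the low-fat meal and was sampled at the same 4 h and 1 h, again with an unfed group of its own. Pools came from separate pairwise crosses, per the design text of the series.

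In an enterocyte that absorbs a fatty meal, fatty acids and monoglycerides are built back into triglyceride in the endoplasmic reticulum. The triglyceride then either leaves the cell on apolipoprotein B particles or waits in cytosolic lipid droplets that are coated with perilipins. Cholesterol that arrives with the meal is sensed in the same membrane, where it holds back the SREBP transcription factors and with them the enzymes of cholesterol synthesis. Fatty acids taken up by liver and gut are also ligands of the PPAR receptors, which switch on genes of fatty acid oxidation.

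For each gene the value of interest was the log2 fold change at 4 h minus that at 1 h, both taken against the unfed larvae of the high-fat cohort, so that the unfed group cancels. A positive difference means a higher level at 4 h. The standard error of a difference, read from the authors' p-values, lay between 0.358 and 0.412 for the 12828 genes, so that a 95% interval reached about 0.715 to either side, and the smallest difference called was 1.06. A gene was called when an approximate normal test on this error gave a Benjamini-Hochberg adjusted p under 0.05 over all 12828 genes. The error comes from a dispersion shared by all transcripts and does not carry each gene's own spread between pools. It was read at a gene's average over the whole series, so it may be too small for genes scarce in the compared pools. Values of single pools were not used here, so the part of 1 pool in a result was not tested. The labels give no hour of sampling for the unfed larvae, and time since the meal, time of day and time since the last food cannot be told apart.

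After the high-fat meal 419 genes were higher at 4 h than at 1 h, 3.27% of those tested, and 415 were lower, or 3.24%. Together they make 834 genes, 6.5% of those tested. Counts of list members given below are to be read beside these shares. The median difference over all 12828 genes was 0.0022, and 90% of the differences lay between -0.92 and 0.93. Differences of at least 2 on the log2 scale were found for 76 of the higher and 64 of the lower genes. Genes that were higher at 4 h had mostly been below the unfed level at 1 h: their median log2 fold change was 0.34 at 4 h and -1.11 at 1 h. Genes that were lower at 4 h had a median log2 fold change of -0.49 at 4 h and 0.99 at 1 h. If the errors of the 2 times were added instead of averaged, which does not credit the shared unfed group, 104 genes were higher and 96 lower. Of the 135 called genes picked by rule for description (the greatest changes, the leading called members of each list and a set of key genes) 63 then lost their calls, none of them with a difference above 1.74 in size.

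**Figure D1:**
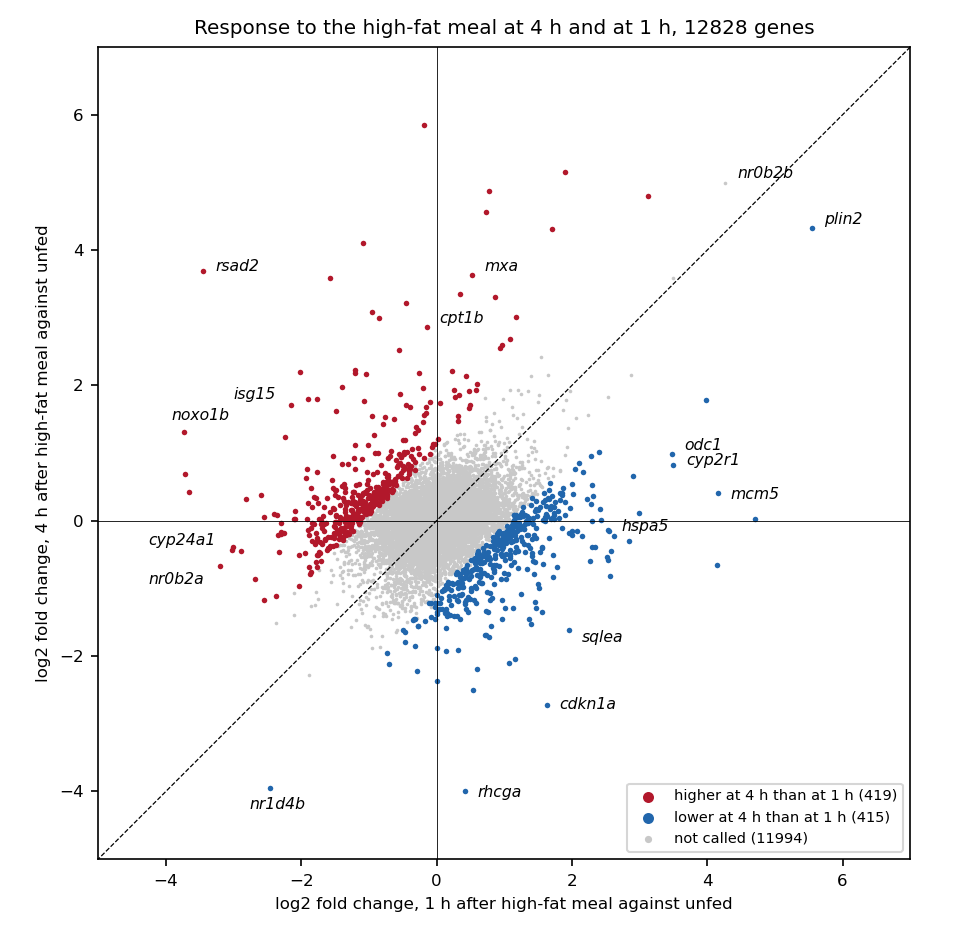
Log2 fold change against unfed larvae at 4 h (vertical axis) and at 1 h (horizontal axis) after the high-fat meal for 12828 genes, 1 point per gene, with the line of equal response dashed. The 419 genes called higher at 4 h lie above the line, many of them left of 0, and the 415 called lower lie below it, many of them right of 0. Both axes share the unfed pools, so that the tilt of the grey cloud along the line is partly built in.

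Among genes with an assigned name and an average of at least 1 log2 CPM, the greatest increase was that of rsad2, whose product viperin blocks the replication of many viruses. The authors' deposited table gave rsad2 a log2 fold change of 3.69 at 4 h and -3.45 at 1 h, a difference of 7.14 ± 0.36 (SE; adjusted p = 3.1e-84). The average of rsad2 also holds the low-fat pools, where rsad2 was high, and this error was too small. In the authors' edgeR comparison at 1 h rsad2 had an adjusted p of 9.5e-07. There odc1, with a change of like size (3.48), had 4.2e-15. rsad2 kept its call when its own implied errors were used. Its transcript ENSDART00000019617 lies on chromosome 17 from 35524581 to 35528452 of genome build Zv9. The 15 genes of greatest increase held 4 more genes that interferon induces or that act with it in mammals, namely isg15, helz2, ifit2 and mxa. They also held noxo1b, of oxidant production, and mpx, the single call among 19 leukocyte markers, whose median difference was -0.20. noxo1b, which organizes an NADPH oxidase, stood at 1.30 at 4 h and -3.73 at 1 h in the authors' deposited table, a difference of 5.03. mpx, the myeloperoxidase of neutrophils, stood at 2.17 at 4 h and -1.05 at 1 h in the authors' deposited table, a difference of 3.22. The other genes of this group were ypel3 (4.41), clec19a (3.42), the cell death gene bbc3 (3.15) and the carnitine palmitoyltransferase cpt1b (3.0). With them were fgf13b (2.98), prdm1b (2.68), pdpk1a (2.62) and cyp24a1 (2.60). All of these values are differences of log2 fold changes. For prdm1b the transcripts were not alike, with differences between 0.10 and 2.68.

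Among the 15 genes of greatest decrease, chosen with the same limits, rhcga, an ammonia transporter of the Rh family, came first. Its level in the authors' deposited table was -3.99 at 4 h and 0.42 at 1 h, a difference of -4.42 ± 0.36 (SE), which is 21.3-fold lower at 4 h. cdkn1a, the inhibitor of cyclin-dependent kinases known as p21, followed with -2.72 at 4 h and 1.63 at 1 h in the authors' deposited table and a difference of -4.35. The group also held the sterol enzyme sqlea, membrane transporters and stress genes. The transporters were slc16a6b (-3.39), of the monocarboxylate transporters, the phosphate transporter slc34a2a (-3.17) and the riboflavin transporter slc52a3 (-2.87). The stress and early response genes were dnajb9a (-3.10), dnajb1b (-3.05), hsp70l (-2.88) and fosb (-2.90). The remaining differences were those of dhrs13a.2 (-3.19), abcf2a (-2.84), mylipb (-2.81), a cartilage collagen, col2a1a (-2.80), and mcm5 (-3.74). The mcm5 transcript spans copies of the inducible hsp70 genes on chromosome 3, from 26878041 to 26953764 of Zv9, and its 4 transcripts differed between -3.92 and -0.12, so that its value is uncertain. Entries with joined symbols were not ranked, and 3 of them went further than rsad2 or rhcga. The entry that joins 5 clone names beginning with si:ch211-113a14.10 stood at 0.03 at 4 h and -9.47 at 1 h in the authors' deposited table, a difference of 9.51. It averaged only 1.06 log2 CPM, so a change of -9.47 leaves hardly any reads at 1 h, and the size of its difference is uncertain. Reads of the 5 joined genes may be shared between them. The joined entries hsp70.2;mcm5 (-4.79) and hsp70.3;hsp70l (-4.68) had greater decreases than rhcga, and both overlap other genes.

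**Figure D2:**
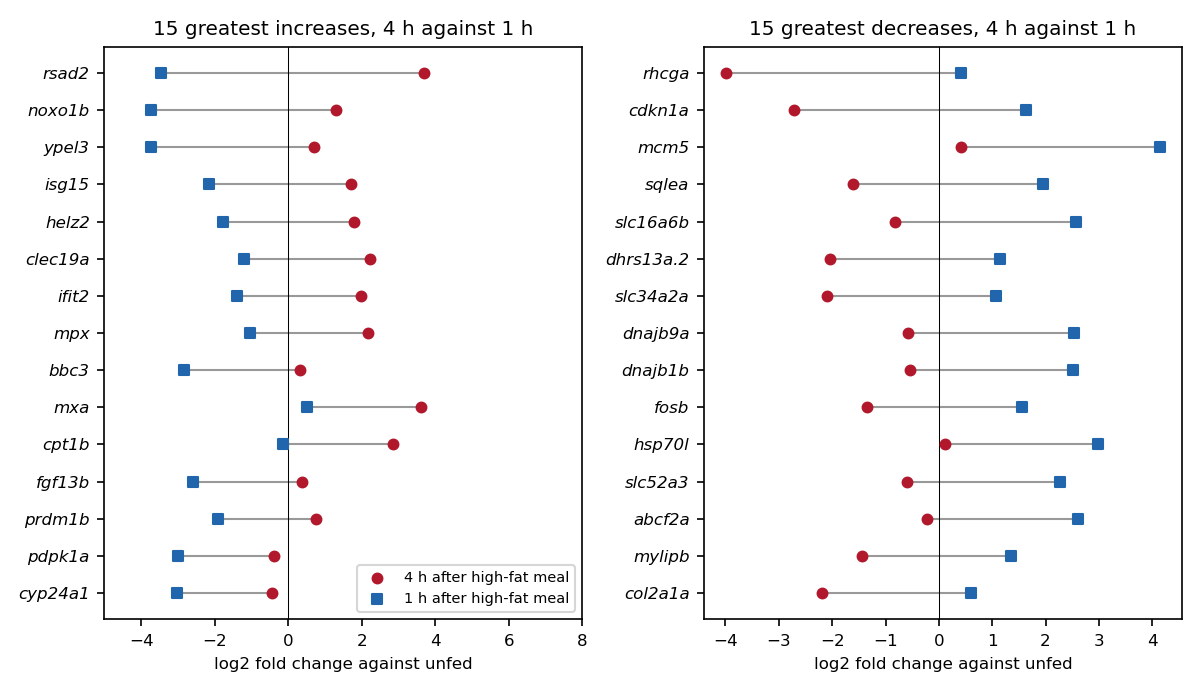
Log2 fold change against unfed larvae (horizontal axis) at 4 h (red circles) and at 1 h (blue squares) after the high-fat meal, for the 15 genes of greatest increase (left) and the 15 of greatest decrease (right) among called genes that have an assigned name and average 1 log2 CPM or more. In both panels most lines cross 0: rsad2 lies at 3.69 at 4 h and -3.45 at 1 h, and sqlea at -1.61 at 4 h and 1.96 at 1 h.

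Many enzymes of cholesterol synthesis were lower at 4 h than at 1 h. Of 21 members described 9 fell, 0 rose and 12 were not called, against the 3.24% of all genes that fell, and 19 of the 21 differences were below 0. The median log2 fold change of the list was -0.44 at 4 h and 0.72 at 1 h, with a median difference of -0.87. The steepest decrease was that of sqlea, squalene epoxidase, a slow step of the pathway. Its values in the authors' deposited table were -1.61 at 4 h and 1.96 at 1 h, a difference of -3.57 ± 0.37 (SE; adjusted p = 4.7e-19), or 11.9-fold lower, at an average of 3.86 CPM. On Zv9 the transcript, ENSDART00000110994, spans chromosome 16 from 46192807 to 46205093.

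The enzymes that fell stand at early and at later steps of the pathway, between others that were not called. Near the start, hmgcs1, which makes HMG-CoA, stood at 0.33 at 4 h and 2.22 at 1 h in the authors' deposited table, a difference of -1.90. hmgcra, the rate-limiting reductase, stood at -0.47 at 4 h and 1.16 at 1 h in the authors' deposited table, a difference of -1.63 ± 0.36 (SE; adjusted p = 3.3e-04). The mevalonate enzymes mvk and mvda had differences of -2.06 and -2.42, and fdps, which makes farnesyl diphosphate, -1.77. Of these, mvk and mvda were scarce, with averages of only 0.09 and 0.94 log2 CPM. After squalene, lss, which closes the sterol ring, had a difference of -2.41. The later enzymes cyp51 and ebp had differences of -1.59 and -2.42. Those not called included acat2 (0.01), pmvk (-0.09), tm7sf2 (-0.21), dhcr7 (-0.41), hmgcrb (-0.81), idi1 (-0.78) and sc5d (-0.87), and the lowest and highest of the 12 were -1.06 for ggps1 and 0.05 for lbr. With the errors of both times added, 7 of the 9 calls were left, hmgcra not among them.

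Genes that sense or take up sterol did not follow the enzymes as a group. Of 20 measured, 1 rose and 2 fell, beside 3.27% and 3.24% of all genes, with a median difference of -0.18. insig1, which holds the SREBP complex in the endoplasmic reticulum, moved against the enzymes: the authors' deposited table gave -0.87 at 4 h and -2.69 at 1 h, a difference of 1.82 ± 0.36 (SE; adjusted p = 3.0e-05). The 2 that fell were mylipb (-2.81), a relative of the ubiquitin ligase that in mammals removes the LDL receptor, and npc1l1 (-1.78), the sterol importer of the enterocyte brush border. srebf2, the transcription factor of the sterol pathway, had a difference of -0.49, and ldlr, the LDL receptor gene, one of -0.12, and neither was called.

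**Figure D3:**
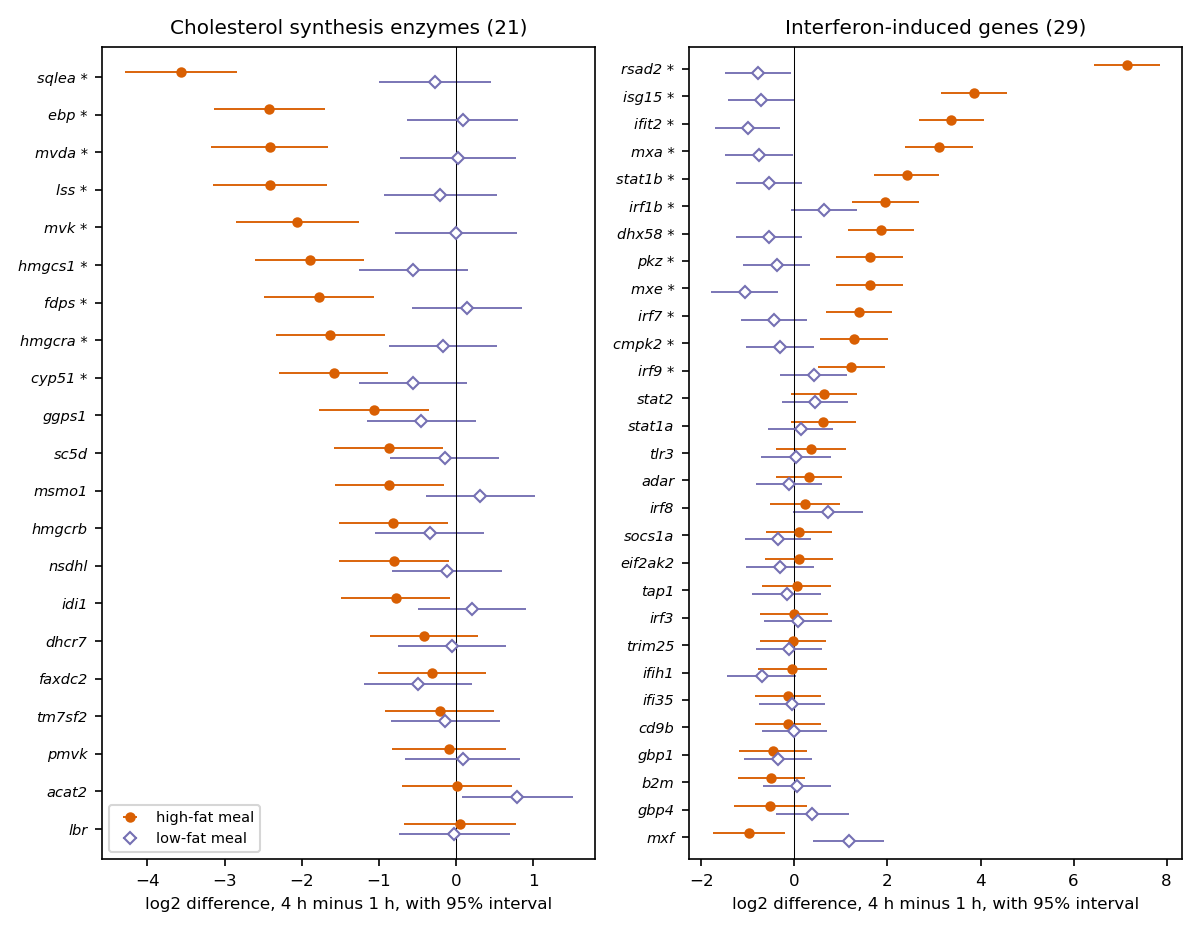
Difference of log2 fold changes, 4 h minus 1 h (horizontal axis), for 21 cholesterol synthesis enzymes (left) and 29 interferon-induced genes (right) after the high-fat meal (orange circles) and the low-fat meal (violet diamonds), with 95% intervals from the shared error. Stars mark genes called after the high-fat meal, 9 of 21 on the left and 12 of 29 on the right. After the low-fat meal 0 members of either list were called in the same normal test, where 1 enzyme and 6 interferon-induced genes had an unadjusted p under 0.05.

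Lipid droplets and lipoproteins behaved otherwise. Of 26 genes of lipoprotein assembly and lipid droplets 0 rose and 3 fell, beside 3.27% and 3.24% of all genes. The list's median log2 fold change was 0.74 at 4 h and 0.64 at 1 h. plin2, the perilipin of growing lipid droplets, was far above the unfed level at both times, with 4.33 at 4 h and 5.54 at 1 h in the authors' deposited table. Its difference of -1.21 ± 0.36 (SE) passed the test with an adjusted p of 0.016, a call that was lost when the gene's own implied errors were used (adjusted p = 0.061) or the errors of both times were added. On Zv9 its transcript spans chromosome 15 from 16049488 to 16067837. The other 2 were the apolipoprotein B genes apoba (-1.25) and apobl (-2.93), of which apobl averaged only 1.97 CPM. The main apolipoprotein B gene of this tissue, apobb, at an average of 11037 CPM, had a difference of 0.16. apoa4, of the A-IV apolipoproteins of chylomicrons, had 0.32, and mtp, which loads lipid onto apolipoprotein B, had -0.42. None of these 3 was called, and the interval of the difference for apobb reached from -0.55 to 0.86.

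In the synthesis of triglyceride 1 of 22 genes fell and 0 rose, too few calls to set this list apart from all genes. The gene that fell was lpin1, a phosphatidate phosphatase, with -1.56 at 4 h and -0.28 at 1 h in the authors' deposited table. In fatty acid synthesis and desaturation 5 of 26 genes fell and 1 rose. Those that fell were the elongation genes elovl7b (-2.68), hsd17b12a (-2.14) and elovl1a (-1.38), and fasn (-1.73) and acaca (-1.10), the synthase and carboxylase that build new fatty acids. The gene that rose was me1 (1.71), malic enzyme. fasn and elovl7b were close to 1 CPM on average, and the calls of elovl1a, fasn, acaca and me1 were lost with the errors of both times added.

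Genes of fatty acid oxidation leaned the other way, with a median difference of 0.32 and 26 of 42 differences above 0. Of the 42 genes 4 were higher and 1 lower, beside 3.27% and 3.24% of all genes. cpt1b, whose enzyme links fatty acids to carnitine for entry into mitochondria, was near the unfed level at 1 h and well above it at 4 h. The authors' deposited table gave cpt1b 2.86 at 4 h and -0.14 at 1 h, a difference of 3.0 ± 0.36 (SE; adjusted p = 3.8e-14), or 8.02-fold higher. On Zv9 the gene spans chromosome 18 from 7811523 to 7832169. hadhaa, of the trifunctional enzyme of β-oxidation, stood at 2.60 at 4 h and 0.96 at 1 h in the authors' deposited table. angptl4, a lipase inhibitor and textbook PPAR target, stood at 1.71 at 4 h and 0.50 at 1 h in the authors' deposited table. slc25a48, a mitochondrial carrier, had a difference of 1.87, and pparab, a PPAR gene, fell with -1.18. Of these 5, slc25a48 and cpt1b kept their calls with the errors of both times added.

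In fatty acid uptake and bile acid handling 1 of 24 genes rose and 2 fell, too few calls to set this list apart from all genes. nr0b2a, a relative of the mammalian bile acid-induced repressor SHP, was deeply below the unfed level at 1 h: the authors' deposited table gave -0.66 at 4 h and -3.20 at 1 h, a difference of 2.54. Its paralog nr0b2b was high at both times, at 5.00 at 4 h and 4.27 at 1 h in the authors' deposited table, and its difference of 0.73 was not called. The fatty acid transporter slc27a4 (-1.20) and the bile salt exporter abcb11a (-1.20) fell. creb3l3a, a membrane-bound transcription factor of liver and gut, was not called (0.32).

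Some chaperones of the endoplasmic reticulum that had been high at 1 h were back near the unfed level at 4 h. Of 43 genes of chaperones and stress in this compartment 7 fell and 0 rose, and the median difference was -0.11, so that most of the list lay close to 0. hspa5, the main Hsp70 of the compartment, stood at -0.15 at 4 h and 2.54 at 1 h in the authors' deposited table, a difference of -2.70 ± 0.36 (SE; adjusted p = 1.3e-11). Its co-chaperones dnajb9b and dnajb9a differed by -2.72 and -3.10. creld2 (-1.99), pdia4 (-1.52), hyou1 (-1.32) and manf (-1.30) completed the 7. xbp1, a transcription factor that sets the response to unfolded protein, had a difference of 0.25 and was not called.

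Of 43 heat shock genes 7 fell, with 0 higher and a median difference of -0.16. For hsp70l, an inducible Hsp70, the authors' deposited table gave 0.11 at 4 h and 2.99 at 1 h, a difference of -2.88 ± 0.36 (SE). hsp90aa1.2 stood at -1.0 at 4 h and 1.52 at 1 h in the authors' deposited table, whereas its paralog hsp90aa1.1 had a difference of 0.59 and was not called. Reads of these copies may be shared between them. dnajb1b (-3.05), bag3 (-2.22), dnaja1 (-1.29), hspa13 (-1.28) and dnajb1a (-1.27) also fell. With the errors of both times added, 4 of the 7 calls were left in each of these 2 lists.

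Of 29 interferon-induced genes 12 rose, 0 fell and 17 were not called, against 3.27% of all genes that rose. Of the 29 differences 20 were above 0 and 9 below, with a median of 0.36. The median log2 fold change was 0.17 at 4 h and -0.17 at 1 h. isg15, a ubiquitin-like modifier, stood at 1.71 at 4 h and -2.14 at 1 h in the authors' deposited table. ifit2, of a family that binds viral RNA, stood at 1.98 at 4 h and -1.40 at 1 h in the authors' deposited table. mxa, an antiviral GTPase, stood at 3.62 at 4 h and 0.52 at 1 h in the authors' deposited table. Of the factors that carry the interferon signal, stat1b (2.41), irf1b (1.96), irf7 (1.39) and irf9 (1.23) were called, while stat2 (0.64) and stat1a (0.62) were not. The remaining calls were dhx58 (1.85), pkz (1.62), mxe (1.61) and cmpk2 (1.27). With the errors of both times added, 7 of the 12 were left. Some of the 12 were high mainly in the low-fat cohort, which raises the average at which the error was read. cmpk2 stood at 4.37 at 4 h and 4.68 at 1 h after the low-fat meal in the authors' deposited table. After the high-fat meal it stood at 0.10 at 4 h and -1.17 at 1 h (adjusted p at 1 h = 0.47 in the authors' edgeR comparison). For such genes the error may be too small.

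Immediate early genes, which growth factors and stress switch on without new protein, included more that fell than rose. Of 42 measured 8 fell, 1 rose and 33 were not called, with a median difference of -0.43 and 31 of 42 differences below 0. nr4a1, a nuclear receptor without a known hormone, stood at -1.91 at 4 h and 0.32 at 1 h in the authors' deposited table, and its relative nr4a3 at 0.18 at 4 h and 2.42 at 1 h in the authors' deposited table. Members of the AP-1 factor fell with them: fosb had a difference of -2.90, jun one of -1.60, jund one of -1.16 and fosl2 one of -1.08. mycb, a MYC gene, fell by 1.88 on the log2 scale, and srfa, the serum response factor, by 1.30. fos itself was not called (-0.87), and csrnp1a (1.38) was the gene that rose.

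Of 27 targets of glucocorticoid hormone 8 fell and 2 rose, with a median difference of -0.54 and 22 of 27 differences below 0. fkbp5, a co-chaperone of the glucocorticoid receptor, stood at -1.55 at 4 h and 0.81 at 1 h in the authors' deposited table, a difference of -2.36 ± 0.36 (SE; adjusted p = 7.0e-09). pik3r3a (-1.61), hsd11b2 (-1.54), the enzyme that inactivates cortisol, ddit4 (-1.44), per1a (-1.22) and pfkfb4l (-1.22) followed. With the errors of both times added fkbp5 alone kept its call.

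Of 42 circadian clock genes 18 were called, 9 higher and 9 lower at 4 h. Positive arm genes were among the higher: arntl1b and arntl1a, the BMAL genes that drive the clock, had differences of 2.14 and 1.71. For arntl1b the authors' deposited table gave 1.51 at 4 h and -0.63 at 1 h. rorca (2.31), which in mammals activates the BMAL gene, nfil3-2 (2.57), bhlhe40 (1.77), fbxl3a (1.96) and the cryptochromes cry2a (2.13), cry2b (1.42) and cry4 (1.12) rose with them. The lower genes held the period genes per1a (-1.22), per1b (-1.11) and per2 (-1.07), the output factors dbpa (-2.13) and tefa (-1.29), nfil3-6 (-2.05), and the cryptochrome family genes cry5 (-1.20) and cry1b (-1.14). nr1d4b, of the REV-ERB repressors, was below the unfed level at both times, at -3.95 at 4 h and -2.46 at 1 h in the authors' deposited table, and differed by -1.49. Its relative nr1d1 (-0.53) and per3 (-0.64) were not called. cry2a overlaps other genes on Zv9, and with the errors of both times added 6 of the higher and 2 of the lower calls were left.

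**Figure D4:**
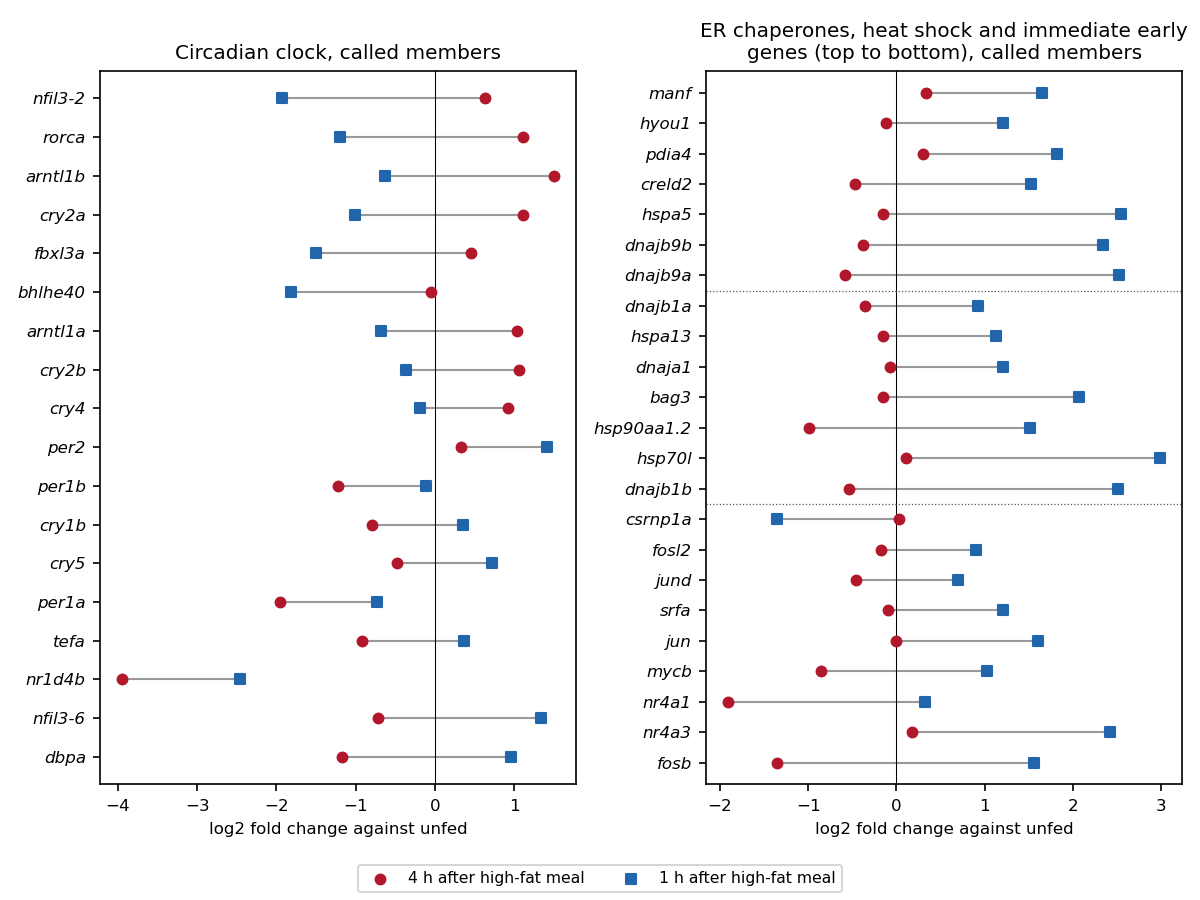
Log2 fold change against unfed larvae (horizontal axis) at 4 h (red circles) and at 1 h (blue squares) after the high-fat meal for the 18 called clock genes (left) and the called chaperones of the endoplasmic reticulum, heat shock genes and immediate early genes (right). On the right the 7 chaperones and 7 heat shock genes are all above the unfed level at 1 h and near it or below it at 4 h. Clock genes split evenly, 9 higher and 9 lower at 4 h.

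Among 41 genes known to rise in fasting or to be repressed by insulin 6 rose and 4 fell, with a median difference of -0.14. igfbp1a, a binding protein of insulin-like growth factors that insulin represses in mammals, was at the unfed level at 4 h and far below it at 1 h: the authors' deposited table gave 0.02 at 4 h and -2.10 at 1 h, a difference of 2.12 ± 0.36 (SE; adjusted p = 3.7e-07). igfbp1b moved alike (1.71), and tat (1.11), g6pca.1 (1.08) and ulk1b (1.18) also rose. foxo3b (-1.37), ddit4 (-1.44), pck2 (-1.32) and klf9 (-1.11) fell. In the response to amino acid starvation 3 of 42 genes rose and 3 fell, beside 3.27% and 3.24% of all genes. The higher were nupr1 (2.60), atf5a (1.74) and stc2b (1.37), and the lower ddit4, pck2 and cbsb (-1.30).

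In most lists of growth genes few members were called lower, beside 3.24% of all genes. Of 99 genes of ribosome biogenesis 5 fell and 0 rose, with rrs1 at -1.59, ppan at -1.37, nop2 at -1.31, nifk at -1.25 and dkc1 at -1.13, and 5 of 99 is little above the background share. Of 17 genes of polyamine metabolism 3 fell, a greater share than among all genes. odc1, the first enzyme of polyamine synthesis, stood at 0.98 at 4 h and 3.48 at 1 h in the authors' deposited table, a difference of -2.50, and amd1 (-1.57) and smox (-1.08) fell with it. Proteasome subunits (46) and genes of glycolysis and the citrate cycle (52) had 0 calls in either direction by the normal test, with 1 and 3 members at an unadjusted p under 0.05. In the respiratory chain 1 gene of 68 fell (cycsb, -1.18), and 1 of 67 translation factors and tRNA synthetases fell (eif4g2a, -1.30). Of 75 genes of secretory transport 2 fell, sec23b (-1.23) and srp9 (-1.30). In the respiratory chain, translation and secretory transport lists the share that fell was below that of all genes. Of the 68 respiratory chain differences 60 were nevertheless below 0 and 8 above, with a median of -0.13. Of the 46 proteasome differences 36 were above 0 and 10 below, with a median of 0.14. In purine and pyrimidine synthesis 1 of 22 fell, impdh2 (-1.17), and in the cell cycle 2 of 39 fell, the uncertain mcm5 and hells (-1.31), too few calls to set these lists apart from all genes.

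Vitamin D metabolism moved in opposite directions at its ends. cyp2r1, which makes 25-hydroxyvitamin D, stood at 0.83 at 4 h and 3.50 at 1 h in the authors' deposited table, a difference of -2.67 ± 0.36 (SE), while cyp24a1, which degrades the hormone, stood at -0.43 at 4 h and -3.03 at 1 h in the authors' deposited table. Of the 7 genes measured in this list 1 rose and 2 fell, the third being the receptor partner rxraa (-1.11). Among 24 targets of p53, bbc3 (3.15), tp53inp1 (1.67), fas (1.18) and sesn1 (1.10) rose while cdkn1a (-4.35) fell. Of 33 genes of oxidative stress defence 2 fell, nfe2l2b (-1.74) and gclm (-1.07), too few calls to set this list apart from all genes. The calls of fas and gclm, like those of smox, ulk1b and the pancreas gene bhlha15, had adjusted p-values of 0.028 to 0.049 and were lost under at least 1 further setting.

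Among 40 genes of inflammation and neutrophils 9 rose and 3 fell. Beside noxo1b and mpx, the oxidase gene nox1 (2.15), irg1l (2.16) and the epithelial factor elf3 (1.90) rose. The 3 that fell were the prostaglandin synthases ptgs2a (-1.53) and ptgs2b (-1.47) and crp (-1.13). In the leukocyte markers mpx was the single call among 19 genes, whose median difference was -0.20, and il1b (-0.28) was not called. The part of leukocyte numbers in the rise of mpx was not tested.

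The markers of the labelled organs were abundant, with median averages of 2962 CPM for 17 markers of the exocrine pancreas, 221 CPM for 33 of liver and 97.6 CPM for 26 of enterocytes. In pooled organs, fewer cells of a type and less RNA per cell cannot be told apart. Of 26 enterocyte markers 7 fell and 1 rose, beside 3.24% and 3.27% of all genes. Their median difference was -0.57, with 21 of 26 differences below 0. The gene that rose was cdx1b (1.25). Those that fell included elovl7b (-2.68), the lactase gene lct (-2.06), mep1b (-1.59), a meprin of the brush border, and sult1st1 (-1.55). They also included alpi.2 (-1.50), an intestinal alkaline phosphatase, and slc6a19a (-1.36), an importer of neutral amino acids. elovl7b averaged only 0.27 log2 CPM. The differences of mep1b, sult1st1, alpi.2 and slc6a19a lay below 1.71 in size. Their calls were lost with the errors of both times added. fabp2, a classical enterocyte gene at an average of 1043 CPM, had a difference of -0.29 and was not called. After the low-fat meal the enterocyte markers had a median difference of -0.42, with 3 called lower and 0 higher. Of 30 markers of lysosome-rich enterocytes 2 rose after the high-fat meal, ctsla (1.22) and asah1a (1.18), and 0 fell, beside 3.27% of all genes that rose. Their median difference was 0.07, with 18 differences above 0 and 12 below. Both calls were lost with the errors of both times added. Pancreas markers had 1 call among 17 (bhlha15, -1.10) and liver markers 1 among 33 (f9b, 1.75). These were too few calls to set either list apart from all genes. Of the liver differences 25 were below 0 and 8 above, with a median of -0.27. Of the pancreas differences 13 were above 0 and 4 below, with a median of 0.07.

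Markers of tissue outside the labelled organs were present, and some differed between the times. Skeletal muscle markers (52, with a median of 21.1 CPM) had a median log2 fold change of -1.01 at 4 h and -0.63 at 1 h. Of the 52 differences 46 were below 0. Of these 5 fell and 0 rose, obsl1b (-2.37), smyhc1 (-1.61), myhz1.2 (-1.42), mybpc1 (-1.16) and tmod4 (-1.14). The mybpc1 transcript overlaps other genes on Zv9, among them dnajb9b (-2.72). Among 24 markers of cartilage, skin, eye and nervous tissue 4 fell, col9a2 (-3.03), col2a1a (-2.80), col11a2 (-1.51) and matn1 (-1.38), all 4 of cartilage. Smooth muscle (18), blood (11) and goblet or hormone cell markers (20) had 0 calls in the same normal test, with 0, 1 and 1 members at an unadjusted p under 0.05. The part of these tissues in the differences of other genes was not tested.

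The low-fat cohort gave the same interval after a meal of egg white, in larvae that share no sample with the high-fat cohort. There 259 of 12828 genes were called between 4 h and 1 h, 2.02% of those tested, with 79 higher and 180 lower at 4 h. Of the genes higher after the high-fat meal 12.4% were also higher after the low-fat meal, and these 52 genes made 65.8% of those higher after the low-fat meal. Of the genes lower after the high-fat meal 21.0% were also lower after the low-fat meal, 87 genes or 48.3% of those lower after the low-fat meal. Most shared their direction whether called or not. Of the 419 higher genes 358 had a low-fat difference above 0, and of the 415 lower genes 385 had one below 0. The median low-fat difference over all 12828 genes was 0.0061. The shares called after both meals are to be read beside the 79 higher and 180 lower genes among all 12828. The differences of both cohorts had a Pearson correlation of 0.57 (Spearman 0.62) across the 12828 genes, which are not independent replicates. Genes called in the same direction after both meals included rhcga (-4.42 after the high-fat and -4.30 after the low-fat meal), noxo1b (5.03 and 3.63), nr4a3 (-2.24 and -2.23), cyp2r1 (-2.67 and -3.05), npc1l1 (-1.78 and -1.87) and dhrs13a.2 (-3.19 and -2.95).

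A test of the meal difference itself, the high-fat minus the low-fat difference of 4 h minus 1 h, called 114 of 12828 genes, 0.889% of those tested. Cholesterol synthesis enzymes took 6 of them, all lower after the high-fat meal, among the 21 described, and 0 of the 21 were called after the low-fat meal (1 at an unadjusted p under 0.05), where the list's median difference was -0.12. sqlea differed between the meals by -3.30 ± 0.52 (SE; adjusted p = 1.5e-07), ebp by -2.51, mvda by -2.45 and lss by -2.21, whereas hmgcra (-1.46) and hmgcs1 (-1.35) were not called in this test. cpt1b differed by 3.14, with a difference of 3.0 after the high-fat and -0.14 after the low-fat meal. plin2 differed by -1.85, with -1.21 after the high-fat and 0.64 after the low-fat meal. In the low-fat cohort plin2 was below the unfed level at both times, at -0.70 at 4 h and -1.34 at 1 h in the authors' deposited table.

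Interferon-induced genes took 10 of the 114, 9 of them above and mxf below. rsad2 differed between the meals by 7.92 ± 0.51 (SE; adjusted p = 4.3e-51). That error was too small as well, since it holds the high-fat error of rsad2. After the low-fat meal rsad2 was already high at 1 h: the authors' deposited table gave 5.49 at 4 h and 6.27 at 1 h against the unfed larvae of that cohort. isg15 likewise stood at 3.05 at 4 h and 3.78 at 1 h after the low-fat meal in the authors' deposited table. Of 43 heat shock genes 3 were called in the test of the meal difference, all lower after the high-fat meal. hsp70l was high at both times after the low-fat meal, with 3.64 at 4 h and 3.19 at 1 h in the authors' deposited table, and differed between the meals by -3.33. hsp90aa1.2 differed by -3.31 and dnajb1b by -2.22, whereas bag3 (-1.35) was not called. Of the 42 clock genes and of the 42 immediate early genes 0 were called in the normal test of the meal difference, where 8 and 5 had an unadjusted p under 0.05, which does not show that they moved alike.

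**Figure D5:**
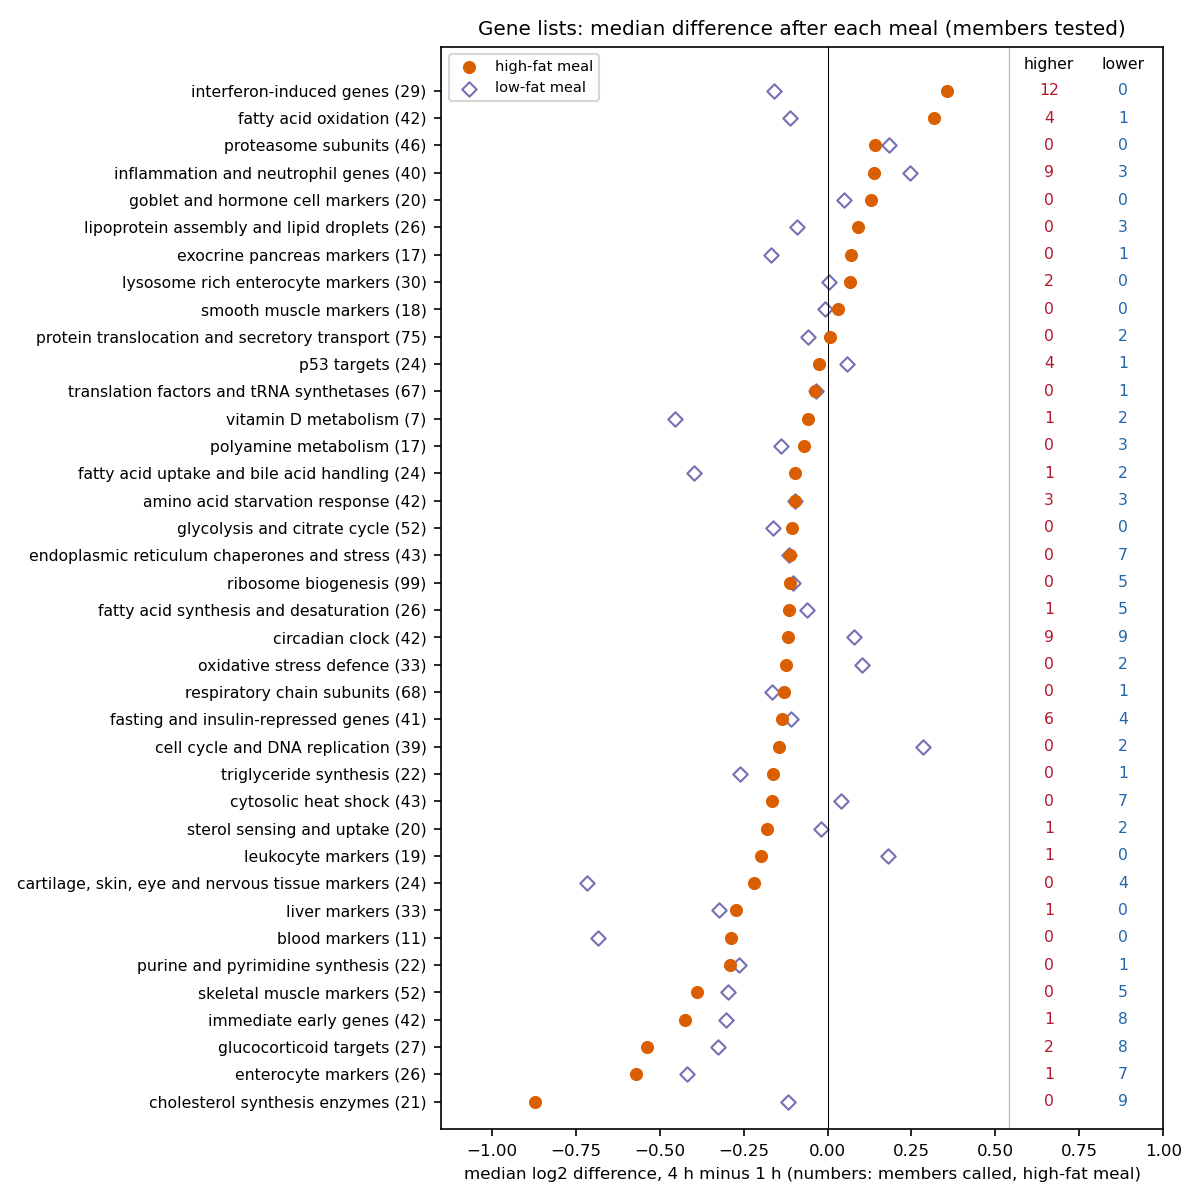
Median difference of log2 fold changes, 4 h minus 1 h (horizontal axis), of 38 gene lists after the high-fat meal (orange circles) and the low-fat meal (violet diamonds), with the number of members tested in parentheses and the members called higher and lower after the high-fat meal at the right. Cholesterol synthesis enzymes have the lowest median after the high-fat meal (-0.87) and lie at -0.12 after the low-fat meal.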

How the data were processed

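Poly(A) RNA of 18 pools was sequenced, per the labels' protocols. TopHat2, edgeR and the Zv9 build are named in the notes on processing, per the submitters' processing notes. For their versions, the counting tool and the strand setting, nothing was given in the sources used. One deposited table was used, which holds the authors' comparisons with unfed larvae: for 56754 transcripts it gives a log2 fold change, a p-value, an adjusted p-value and 1 average log2 CPM, per the file headers. It has 0 columns of single samples, so depth is unknown.

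Each symbol was represented by its transcript of highest average (21227 symbols), and the 12828 that averaged 0 log2 CPM or more were tested. Standard errors were read as log2 fold change over the normal score of its p-value and taken as medians in bins of log2 CPM of width 0.5. The error of 4 h minus 1 h was the root of the average of the squared errors at 4 h and 1 h, and that of the meal difference the root of the sum over both cohorts. Normal tests were adjusted by Benjamini-Hochberg (Python 3.11.15, SciPy 1.17.1). In 8 simulations of 4 h minus 1 h with 12828 genes each, 24.8% of genes changed by 1 on the log2 scale, 96.0% of those changed by 2 and 99.8% of those changed by 3 were called, and 8.39% of the calls were false, against a nominal 5%. The share of false calls in the measured data was not tested, as each gene's own spread between pools was not available. Leaving out pools and a replicate block, which need values of single pools, were not run, nor were promoter motifs.

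Genes named were the 15 highest and 15 lowest called differences (log2 CPM of at least 1, assigned symbol), up to 6 called members of each of 38 lists, a fixed set of key genes and the 10 greatest meal differences. Other members were named to complete counts, after their values were seen. Members and lists were chosen with earlier results of these data known. One measured gene of the cholesterol list is not reported here.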

Additional observations from a re-analysis of the deposited data

Results flagged for a closer look

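The change between 4 h and 1 h differed between the meals for 28 of the 142 genes picked by rule for description. The test was of the difference itself (high-fat minus low-fat, log2 scale, Benjamini-Hochberg adjustment over 12828 genes). The rule takes in the greatest meal differences and mostly genes called after the high-fat meal, so the count of 28 is partly set by the picking. Over all 12828 genes the test called 114, or 0.889%. Above the low-fat meal were the interferon-induced rsad2 (7.92), isg15 (4.58), ifit2 (4.38), mxa (3.87), helz2 (3.09) and stat1b (2.96). These 6 genes had differences between -1.01 and 0.47 after the low-fat meal. The others above it were cpt1b (3.14), fgf13b (2.89), bbc3 (2.25), nupr1 (2.03) and ypel3 (2.02).

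Below the low-fat meal were the sterol enzymes sqlea (-3.30), ebp (-2.51), mvda (-2.45), lss (-2.21) and mvk (-2.06). The chaperones hsp70l (-3.33), hsp90aa1.2 (-3.31), dnajb1b (-2.22), dnajb9a (-2.15) and dnajb9b (-1.99) were below it too, as was mcm5 (-4.61), whose transcript overlaps hsp70 copies. The remaining genes were slc16a6b (-2.69), cdkn1a (-2.46), hells (-2.45), odc1 (-2.11), apobl (-2.07) and plin2 (-1.85). Outside the rule, the difference was also called for dhx58 (2.40), pkz (2.0), mxe (2.68) and irf7 (1.81), above the low-fat meal, and for fdps (-1.92), il1b (-2.24) and mxf (-2.15), below it. Of the 28 calls 12 were left when the errors of both times were added, those of rsad2, isg15, ifit2, mxa, helz2, stat1b, cpt1b, fgf13b, sqlea, hsp70l, hsp90aa1.2 and mcm5. The meals were given to separate cohorts, so the meal and the cohort cannot be told apart.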

How the results depend on the processing

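With the errors of both times added instead of averaged, 104 genes were higher and 96 lower at 4 h after the high-fat meal (419 and 415 with the averaged error), and 41 meal differences were called (114 before). A filter at a log2 CPM of at least 2 left 253 higher and 299 lower genes, 47 higher and 111 lower after the low-fat meal (79 and 180 before), and 64 meal differences. With all transcripts as the unit, 845 were higher and 841 lower. Own implied errors, no filter, the median over transcripts, subtracting the median difference and requiring a difference of at least 1 kept the 2 high-fat counts within 1.5 times, and subtracting the median left the meal differences at 114. The other settings were not run on the low-fat counts or the meal differences. No gene picked by rule changed direction with its call under any setting run. Calls were lost for 63 of these 135 called genes with the errors added, for plin2, fas and smox with own implied errors, for bhlha15, fas, gclm and smox without the filter, and for smox and ulk1b with the median over transcripts. No paired analysis was possible because the table used holds comparisons and no values of single pools, and leaving out pools was not run for the same reason. Depth is unknown, and calls below about 1 CPM were not made.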

Other observations

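Other gene families, chosen after their values were seen and therefore given as counts with no test, also differed between the 4 h and the 1 h larvae fed the high-fat meal. Of 29 autophagy genes 6 rose and 0 fell, with a median difference of 0.61. They were atg9a (1.52), which carries membrane to the growing autophagosome, atg9b (1.20), the kinases ulk1a (1.19) and ulk1b (1.18), the lipid kinase subunit pik3r4 (1.14) and atg4c (1.13). Of 35 genes of the mTOR complexes and their regulators 5 rose, among them prr5 (1.66), tsc1b (1.31), rictorb (1.30) and wdr59 (1.23), and ddit4 (-1.44) fell. Of 84 RING finger and F-box genes, many of them ubiquitin ligases, 13 rose and 0 fell, led by rnf183 (2.14). Of 41 cell death genes 8 rose, including bbc3 (3.15), tnfsf10 (2.25), bada (2.16) and casp9 (1.68), and 2 fell. The corresponding share of all genes was 3.27% higher and 3.24% lower. The 6 autophagy differences and those of prr5, tsc1b, rictorb and wdr59 lay below 1.71 in size. Among the genes picked by rule, 1.71 was the smallest size that kept its call with the errors of both times added.

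Of 246 solute carrier genes 12 rose, 23 fell and the others were not called. Among 6 phosphate transporter genes slc34a2a (-3.17), slc20a1a (-1.97) and slc20a1b (-1.77) fell while slc34a2b (1.64) rose, so that the slc34a2 paralogs moved in opposite directions. The chloride and bicarbonate exchanger slc26a6 (-2.48), the sodium and proton exchanger slc9a3.1 (-2.76) and the Rh gene rh50 (-2.65) also fell. Of 22 heme and iron genes 5 fell and 0 rose, with the heme exporter flvcr1 at -2.31 and the transferrin receptor tfr1b at -1.36. Of 27 sulfotransferase and glucuronosyltransferase genes 5 fell, with ugt5a1 at -2.23, a gene that overlaps its relatives on Zv9. The 3 fam46 genes measured all fell, by 1.41 for fam46ba, 1.47 for fam46bb and 1.65 for fam46c on the log2 scale. These sizes too lay below the 1.71 given above.

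Of 16 finTRIM genes, a family of fish relatives of antiviral TRIM genes, 7 rose and 0 fell, with ftr42 at 2.08. ftr42 averaged only 0.30 log2 CPM, and its error may be too small. It stood at 1.68 at 4 h after the high-fat meal in the authors' deposited table (adjusted p = 0.28 in their edgeR comparison). A further 16 genes with clone names or joined symbols rose by at least 3 on the log2 scale, and the meal difference was called for all 16. The highest was the joined entry that begins with si:ch211-113a14.10 (9.51), described above, whose size is uncertain. Among the others were zgc:152658 (6.03), zgc:123282 (5.17), si:ch211-281g13.5 (5.19) and si:dkey-116m16.3 (4.22). Some were high in the low-fat cohort, which raises the average at which the error was read. At 1 h zgc:123282 stood at -1.57 after the high-fat meal (adjusted p = 0.23 in the authors' edgeR comparison) and 5.08 after the low-fat meal. For such genes the errors of the difference and of the meal difference may be too small. gig2l rose by 3.83 at a low average abundance. Heart muscle genes differed between the cohorts: of 9 measured 0 were called after the high-fat meal, and 6 were lower at 4 h after the low-fat meal, among them myl7 (-2.04), cmlc1 (-2.47), vmhcl (-2.05) and nppa (-1.86).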
